A study of Mus musculus with 11 samples.

Results

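Heat shock protein genes were examined in renal CD4+ T cells of mice on day 2 after ischemia-reperfusion injury (IRI). The group holds 10 of the 35814 gene symbols of the deposited count table. These are *Hspa1a* and *Hspa1b* (inducible Hsp70), *Hspa8* (constitutive Hsc70), *Hsp90aa1* and *Hsp90ab1* (the cytosolic Hsp90 proteins), *Hsph1* (Hsp110), the J-domain proteins *Dnaja1* and *Dnajb1*, and the mitochondrial chaperonins *Hspd1* and *Hspe1*. The members were chosen by symbol, from a list put together with the counts of these same 11 libraries known, so their levels and fold changes are given as a description. They were part of the fit over all genes, whose calls are stated for them only beside the share of all genes called, and no p is given for them. All 10 symbols were found in the table, and all passed the filter on low counts in each comparison.

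The 11 libraries came from 3 CD4cre mice, whose genotype is labelled WT, from 5 mice labelled CD4IKK1Δ and from 3 mice labelled CD4NIKΔ, all on a C57BL/6 background. Mice were male and 8 to 12 weeks old, and 45 min of renal ischemia was applied in every group. All groups, the controls included, carried a Cre recombinase under the CD4 promoter, which is active in every cell that has passed through CD4 expression in the thymus, CD8+ T cells included. In addition, mice labelled CD4IKK1Δ carried floxed *Chuk*, the gene of IKK1, and mice labelled CD4NIKΔ carried floxed *Map3k14*, the gene of NIK. Both kinases belong to the non-canonical NFκB pathway. The cells were enriched with beads, sorted, and their RNA was amplified before sequencing. No group without IRI is among the 11 libraries.

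Heat shock proteins are chaperones that keep other proteins from misfolding and aggregating. Hsp70 binds short hydrophobic stretches of its clients in a cycle driven by ATP, J-domain proteins deliver the clients and start that cycle, Hsp110 releases the nucleotide, and Hsp90 takes over clients such as kinases and steroid receptors. *Hspa8*, *Hsp90ab1* and the mitochondrial pair *Hspd1* and *Hspe1* are made by unstressed cells, whereas *Hspa1a*, *Hspa1b* and *Dnajb1* are classic targets of heat shock factor 1.

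Heat shock factors bind inverted repeats of the unit GAA. Promoter windows from RefSeq (GRCm38.p6, 250 bases before to 50 bases after a transcription start) were searched for GAANNTTC and TTCNNGAA, which each read the same on both strands and hold 2 units. Matches of both motifs that start 5 bases apart overlap and make 3 units in a row. A window was found for 7 of the 10 members, and *Hspa8*, *Hsp90aa1* and *Hsp90ab1* had none. The windows of *Hspa1a* and *Hspa1b* are shown because these genes differed most in CPM between libraries, that of *Dnaja1* as another gene that differed several-fold, that of *Hspe1* because it holds several overlapping matches, and that of *Hsph1* as an example with matches on both sides of the start. Matches are in capitals, 5′ to 3′.

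Hspa1a, chr17:34972107-34972406, minus strand: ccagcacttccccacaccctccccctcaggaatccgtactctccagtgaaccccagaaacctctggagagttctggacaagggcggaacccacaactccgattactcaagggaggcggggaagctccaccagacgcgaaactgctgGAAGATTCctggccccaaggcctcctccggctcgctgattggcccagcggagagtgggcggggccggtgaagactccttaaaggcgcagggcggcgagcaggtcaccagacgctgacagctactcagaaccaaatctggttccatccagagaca
Hspa1b, chr17:34959189-34959488, minus strand: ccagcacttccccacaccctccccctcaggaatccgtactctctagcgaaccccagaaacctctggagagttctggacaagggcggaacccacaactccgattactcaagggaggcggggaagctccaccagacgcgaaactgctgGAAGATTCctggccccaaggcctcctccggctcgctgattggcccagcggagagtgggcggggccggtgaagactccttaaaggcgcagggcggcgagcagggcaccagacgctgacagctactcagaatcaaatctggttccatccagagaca
Dnaja1, chr4:40722218-40722517, plus strand: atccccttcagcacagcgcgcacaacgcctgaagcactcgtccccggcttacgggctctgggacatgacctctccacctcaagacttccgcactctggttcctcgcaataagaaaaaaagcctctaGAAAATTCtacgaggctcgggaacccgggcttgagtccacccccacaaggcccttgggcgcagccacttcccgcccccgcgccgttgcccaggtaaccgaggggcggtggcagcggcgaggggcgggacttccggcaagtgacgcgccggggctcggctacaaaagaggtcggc
Hspe1, chr1:55087898-55088197, plus strand: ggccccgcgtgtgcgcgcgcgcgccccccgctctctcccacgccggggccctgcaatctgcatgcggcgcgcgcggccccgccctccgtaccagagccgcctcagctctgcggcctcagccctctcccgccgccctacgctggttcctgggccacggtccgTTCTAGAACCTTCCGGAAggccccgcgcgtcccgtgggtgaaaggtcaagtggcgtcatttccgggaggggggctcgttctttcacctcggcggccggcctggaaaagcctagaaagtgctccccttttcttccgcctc
Hsph1, chr5:149636287-149636586, minus strand: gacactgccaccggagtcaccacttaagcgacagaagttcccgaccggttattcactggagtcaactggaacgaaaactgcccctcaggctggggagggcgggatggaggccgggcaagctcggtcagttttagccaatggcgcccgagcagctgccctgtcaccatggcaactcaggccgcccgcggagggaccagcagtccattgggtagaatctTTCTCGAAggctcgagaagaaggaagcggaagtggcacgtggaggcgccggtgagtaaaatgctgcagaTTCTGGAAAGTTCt

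The windows of *Hspa1a* and *Hspa1b* were identical at 296 of 300 bases (98.7%) and held the same match of the first motif, which started 104 bases before the transcription start. In *Dnaja1*, the match of this motif started 124 bases before it. In the window of *Hspe1*, overlapping matches started 89, 84 and 79 bases before the transcription start. The neighbouring gene *Hspd1* is transcribed in the opposite direction, and 1 of its windows covers the same element, 144 to 134 bases before its own start. The matches of *Hsph1* started 33 bases before and 36 and 41 bases after the start. The windows of *Dnajb1* held no match, which says only that these letters are not in them. The 7 members had 12 windows, some of which overlap or, as for *Hspa1a* and *Hspa1b*, are nearly the same sequence. Of these, 7 windows (of 6 genes) had a match and 4 (of 3 genes) had 3 units in a row, while of all 32851 windows of the RefSeq table, 15.1% had a match and 0.603% had 3 units in a row. A match is a description of the sequence and not a binding site.

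Each library held between 15751632 and 25737046 estimated counts, and 3 counts corresponded to 0.115 to 0.212 CPM (counts scaled to the library size, with TMM factors over all 11 libraries). Such limits cover counting error only. Neither targeted gene was lower in the group named after it than in every control. *Chuk* was at 15.3 to 26.5 CPM in the libraries labelled CD4IKK1Δ and at 16.3 to 33.2 CPM in CD4cre libraries, and *Map3k14* was at 12.8 to 30.8 CPM in libraries labelled CD4NIKΔ and at 14.7 to 19.6 CPM in CD4cre libraries. In libraries labelled CD4IKK1Δ, *Map3k14* was at 1.87 to 9.24 CPM, below every library of both other groups. Gene-level counts do not resolve the floxed exons. The summed level of 15 T cell markers ran from 1577 to 3045 CPM in CD4cre libraries, from 12.4 to 1341 CPM in libraries labelled CD4IKK1Δ and from 8407 to 12605 CPM in libraries labelled CD4NIKΔ, and these ranges did not overlap. The 10 neuronal markers, which define no T cell, had summed levels of 2341 to 2800, 2903 to 3378 and 762 to 1576 CPM in the same order. The 12 myeloid markers summed to 452 to 1893 CPM in CD4cre, 99.3 to 262 CPM in CD4IKK1Δ and 692 to 1021 CPM in CD4NIKΔ libraries, and the 12 kidney tubule markers to 18.7 to 88.7, 5.50 to 12.4 and 17.0 to 116 CPM, so that both sums were lower in each library labelled CD4IKK1Δ than in any other library. The 6 endothelial markers summed to 17.0 to 23.0, 11.4 to 17.6 and 25.3 to 56.4 CPM. Single markers at 0 do not show that a cell type was absent. Of the markers, *Pax5* and *Itgam* were at 0 in every CD4cre library, *Fcer1g* in every CD4IKK1Δ library, and *Cdh5* and *Tek* in every CD4cre and CD4NIKΔ library. In bulk RNA, fewer cells of a type and less RNA per cell cannot be told apart, and the part of cell composition in the results that follow was not tested beyond the values given.

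The inducible Hsp70 genes and *Dnajb1* spanned the widest ranges of the members. Over the 11 libraries, *Hspa1a* spanned 11.46 and *Hspa1b* 11.68 in log2 CPM, and no range is given for *Dnajb1*, which was at 0 counts in 1 library. *Hspa1a* lies on chromosome 17 of GRCm39 (35188166 to 35191132) and consists of 1 exon. It was at 9514, 5068 and 3568 CPM in the 3 CD4cre libraries, at 11.2, 89.5, 541, 1010 and 1341 CPM in the 5 libraries labelled CD4IKK1Δ, and at 11009, 22726 and 31913 CPM in the 3 libraries labelled CD4NIKΔ. The groups did not overlap: each library labelled CD4IKK1Δ lay below each control library, and each library labelled CD4NIKΔ above. The estimated counts behind these values ran from 174 to 462193.

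*Hspa1b*, also of 1 exon, lies next to it (35175412 to 35178214) and encodes nearly the same protein. Its levels were 9220, 3642 and 2225 CPM in CD4cre libraries, 9.05, 83.1, 289, 834 and 1056 CPM in libraries labelled CD4IKK1Δ, and 13875, 25631 and 30084 CPM in libraries labelled CD4NIKΔ, in the same order of groups and again without overlap. Transcripts of these genes share an identical stretch of 638 bases, and 63.8% of the 31-base words of the *Hspa1a* transcript occur in *Hspa1b*, so that the division of reads between them is uncertain. The ratio of *Hspa1a* to *Hspa1b* counts lay between 0.793 and 1.87 in the 11 libraries. Together, both genes took between 0.00196% and 0.251% of all counts in the libraries labelled CD4IKK1Δ, between 0.607% and 1.89% in CD4cre libraries and between 2.41% and 5.58% in libraries labelled CD4NIKΔ.

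**Figure D1:**
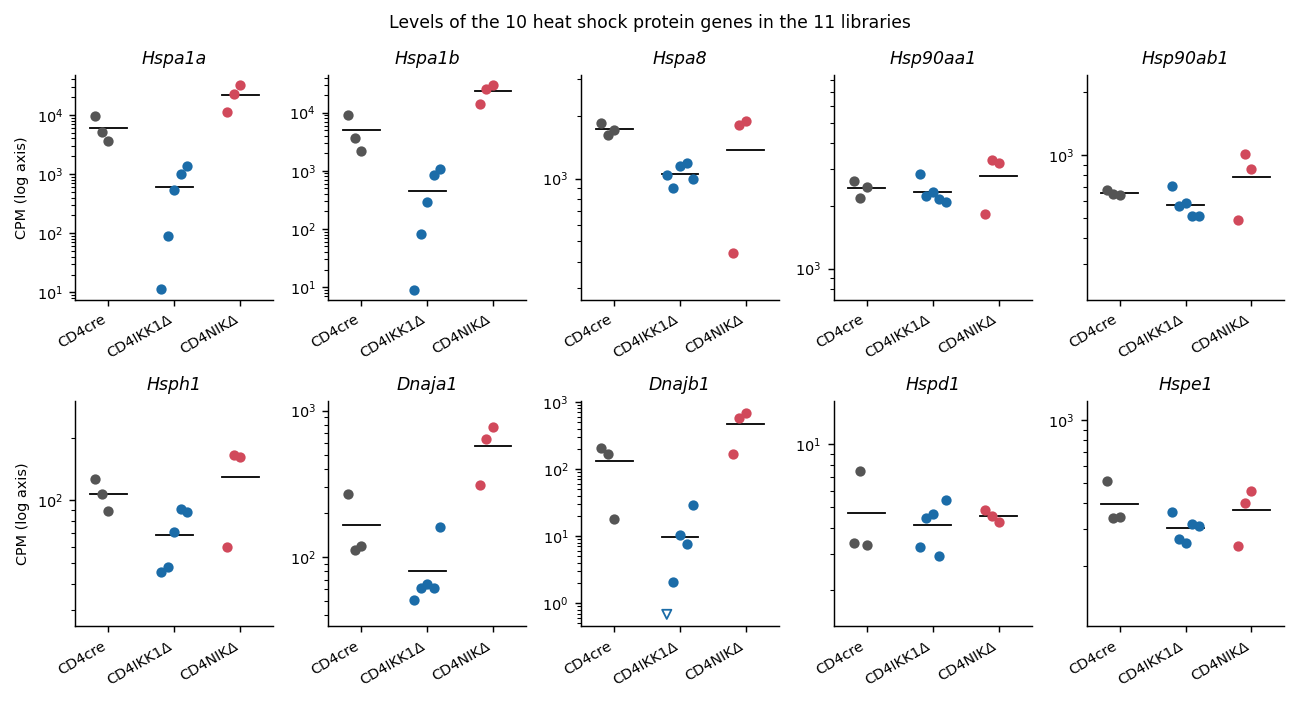
Levels of the 10 heat shock protein genes by library. Each panel is 1 gene, points are libraries (3 CD4cre, 5 labelled CD4IKK1Δ and 3 labelled CD4NIKΔ, from left to right by replicate number), the vertical axis is CPM on a log scale that differs between panels, black lines are group means, and the open triangle marks the *Dnajb1* value of 0. The 3 groups do not overlap for *Hspa1a* and *Hspa1b*, whereas they overlap for *Hsp90aa1*, *Hsp90ab1*, *Hspd1* and *Hspe1*.

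*Dnajb1*, the J-domain partner of inducible Hsp70 (chromosome 8, 84334811 to 84339820), had a similar order of groups. It was at 206, 168 and 18.2 CPM in CD4cre libraries and at 0, 2.04, 10.3, 7.60 and 29.1 CPM in libraries labelled CD4IKK1Δ, where the floor of 3 counts in the library at 0 was 0.194 CPM. In libraries labelled CD4NIKΔ, *Dnajb1* was at 165, 571 and 693 CPM. Libraries labelled CD4IKK1Δ and CD4NIKΔ did not overlap, while each of both groups overlapped with CD4cre. Of its 31-base words, 0.402% occur in other genes, so that its counts are the least affected by shared sequence next to those of *Hsph1*.

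*Dnaja1*, which encodes the J-domain protein that serves Hsc70 in the cytosol (chromosome 4, 40722056 to 40737149), was at 270, 111 and 119 CPM in CD4cre libraries, at 50.5, 61.8, 65.8, 61.3 and 159 CPM in libraries labelled CD4IKK1Δ and at 311, 639 and 778 CPM in libraries labelled CD4NIKΔ. The libraries labelled CD4NIKΔ lay above all others, and the libraries labelled CD4IKK1Δ overlapped with the controls through replicate 5 only. These counts are uncertain, because 87.8% of the 31-base words of the *Dnaja1* transcript also occur in transcripts of *Smu1*, and the sources used here do not state whether strand was used. *Smu1* itself had group means of 78.1, 64.2 and 187 CPM in CD4cre, CD4IKK1Δ and CD4NIKΔ libraries.

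*Hspa8*, the constitutive Hsp70 (chromosome 9, 40711630 to 40731039), showed a different order. It was at 1847, 1616 and 1714 CPM in CD4cre libraries and at 1037, 899, 1154, 1182 and 997 CPM in libraries labelled CD4IKK1Δ, which lay below all controls. Libraries labelled CD4NIKΔ were at 440, 1804 and 1879 CPM, so that replicate 1 held the lowest value of all 11 libraries while replicate 2 exceeded 2 of the 3 controls and replicate 3 exceeded all 3. Its SD on the log2 scale was 0.10 in CD4cre (n = 3), 0.16 in CD4IKK1Δ (n = 5) and 1.19 in CD4NIKΔ libraries (n = 3). Of the 31-base words of *Hspa8*, 74.3% occur in *Gm15459*, a gene that had at most 9.95 CPM in any library.

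*Hsph1*, whose protein is the Hsp110 exchange factor of Hsp70 (chromosome 5, 149537636 to 149560156), was at 127, 107 and 88.7 CPM in CD4cre libraries. It was at 45.3, 47.8, 70.7, 90.9 and 88.1 CPM in libraries labelled CD4IKK1Δ and at 59.9, 166 and 162 CPM in libraries labelled CD4NIKΔ, and all 3 groups overlapped.

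The Hsp90 genes varied little. *Hsp90aa1*, the stress-responsive form (chromosome 12, 110656842 to 110669166), was at 2638, 2190 and 2452 CPM in CD4cre libraries, at 2840, 2230, 2322, 2167 and 2091 CPM in libraries labelled CD4IKK1Δ and at 1823, 3308 and 3201 CPM in libraries labelled CD4NIKΔ. *Hsp90ab1*, the constitutive form (chromosome 17, 45878552 to 45891949), was at 679, 648 and 644 CPM, at 711, 571, 592, 513 and 509 CPM, and at 487, 1010 and 856 CPM in the same order. All groups overlapped for both genes, and CD4NIKΔ replicate 1 was the lowest library for both. The ratio of *Hsp90aa1* to *Hsp90ab1* counts, without correction for length, lay between 3.27 and 4.23 in the 11 libraries, a 1.29-fold range, whereas the ratio of inducible Hsp70 to *Hspa8* counts ran from 0.0195 to 56.6.

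The mitochondrial chaperonins share an upstream region but had unlike estimated counts. *Hspe1* (chromosome 1, 55127260 to 55130476), the cochaperonin lid, was at 511, 338 and 342 CPM in CD4cre libraries, at 362, 269, 257, 318 and 310 CPM in libraries labelled CD4IKK1Δ and at 249, 401 and 459 CPM in libraries labelled CD4NIKΔ. *Hspd1* (55116989 to 55171038), the Hsp60 ring subunit, was between 2.93 and 7.44 CPM in all 11 libraries, with group means of 4.71 ± 2.37 (SD, n = 3), 4.13 ± 1.03 (SD, n = 5) and 4.54 ± 0.31 CPM (SD, n = 3). Counts of *Hspe1* exceeded those of *Hspd1* by 45.4 to 151 times without correction for length, and what lies behind this gap was not tested. Of the 31-base words of *Hspd1*, 51.8% occur in *Hspd1-ps3*, which had at most 0.565 CPM. Of those of *Hspe1*, 59.1% occur in other genes, and the division of reads is uncertain for both genes.

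Levels were set beside each other between genes per kilobase of the canonical transcript. In CD4cre libraries the order was *Hspa1a* (2039 CPM per kb), *Hspa1b* (1794), *Hspa8* (721), *Hsp90aa1* (688), *Hspe1* (513), *Hsp90ab1* (243), *Dnajb1* (37.0), *Dnaja1* (29.9), *Hsph1* (17.4) and *Hspd1* (1.94), each as a mean of 3 libraries in CPM per kb. The ranges of *Hspa1b* and *Hspa8*, of *Hspe1* and *Hsp90ab1*, of *Hsp90ab1* and *Dnajb1*, and of *Hsph1* and *Hspd1* did not overlap, while all other neighbours in that order did. In libraries labelled CD4IKK1Δ, *Hsp90aa1* came first with 660 ± 84.3 CPM per kb (SD, n = 5), and *Hspa1a* and *Hspa1b* came after *Hsp90ab1* with 202 ± 194 and 162 ± 166 CPM per kb. In libraries labelled CD4NIKΔ, *Hspa1b* and *Hspa1a* came first with 8276 ± 2988 and 7375 ± 3531 CPM per kb (SD, n = 3), and every value of both lay above every value of *Hsp90aa1*, the next gene. *Hspd1* came last in all 3 groups.

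Within groups, libraries also differed. CD4IKK1Δ replicate 1 was the lowest of its group for 5 of the 10 members (*Hspa1a*, *Hspa1b*, *Hsph1*, *Dnaja1* and *Dnajb1*) and the highest for 3. CD4NIKΔ replicate 1 was the lowest of its group for 9 of the 10 members, all except *Hspd1*. CD4cre replicate 1 was the highest of its group for 9 members.

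Levels of inducible Hsp70 were then set beside those of the T cell receptor constant genes, *Trac*, *Trbc1* and *Trbc2* together, in the same libraries. The T cell receptor counts were 35820, 22741 and 12558 in CD4cre libraries, 41, 868, 11413, 5277 and 5644 in libraries labelled CD4IKK1Δ, and 60124, 111648 and 90324 in libraries labelled CD4NIKΔ. Per T cell receptor constant count there were 13.6, 7.87 and 9.20 counts of *Hspa1a* and *Hspa1b* in CD4cre libraries, 7.65, 3.80, 1.29, 7.03 and 9.43 in libraries labelled CD4IKK1Δ, and 7.50, 8.81 and 9.72 in libraries labelled CD4NIKΔ. All 3 groups overlapped on this ratio, which spanned a 10.6-fold range over the 11 libraries, compared with a 3055-fold range of the summed *Hspa1a* and *Hspa1b* level itself. CD4IKK1Δ replicate 3 had the lowest ratio, and the ratio of replicate 1 rests on 41 T cell receptor counts. *Dnajb1* had between 0 and 0.152 counts per T cell receptor constant count, and the groups overlapped as well. *Dnaja1* had 0.100 to 0.196 in CD4cre, 0.102 to 19.1 in CD4IKK1Δ and 0.0938 to 0.122 in CD4NIKΔ libraries, where the highest values were those of the 2 libraries with the fewest T cell receptor counts.

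**Figure D2:**
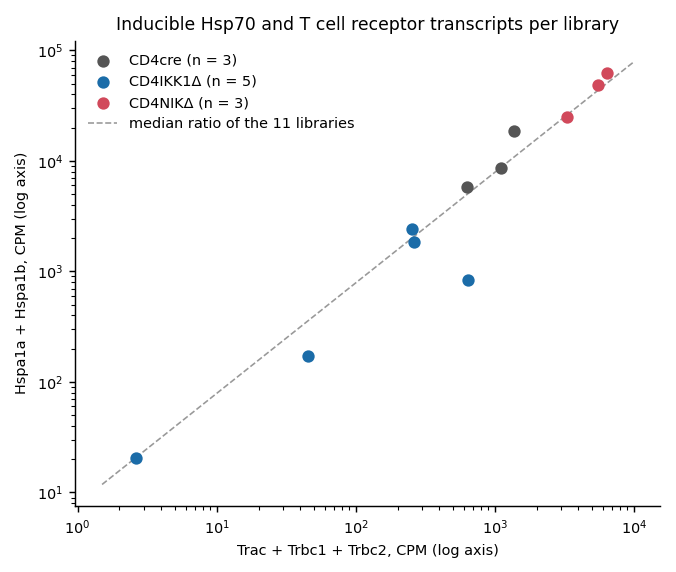
Summed level of *Hspa1a* and *Hspa1b* (vertical axis, CPM, log scale) against that of *Trac*, *Trbc1* and *Trbc2* (horizontal axis, CPM, log scale). Points are the 11 libraries coloured by group, and the dashed line has the median ratio of 7.87. Libraries labelled CD4IKK1Δ lie at the lower left, libraries labelled CD4NIKΔ at the upper right, and CD4IKK1Δ replicate 3 lies farthest below the line.

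The 15 immediate early genes listed (*Fos*, *Jun*, *Egr1* and others) are transcribed rapidly after many stimuli. Their summed level was 20168, 8440 and 8038 CPM in CD4cre libraries, 702, 1122, 2112, 3276 and 3232 CPM in libraries labelled CD4IKK1Δ, and 15023, 24585 and 30354 CPM in libraries labelled CD4NIKΔ. Libraries labelled CD4IKK1Δ lay below all others, and the other groups overlapped. The part of this set, of the T cell transcripts and of the neuronal transcripts in the levels of the heat shock protein genes was not tested, nor was that of the myeloid and tubule transcripts.

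Relative to CD4cre, in libraries labelled CD4IKK1Δ the fitted log2 fold changes (edgeR, estimated from the counts of these 8 libraries) of all 10 members were negative. They were −3.34 (standard error 1.29) for *Hspa1a*, −3.47 (1.33) for *Hspa1b* and −3.73 (1.41) for *Dnajb1*, followed by −1.07 (0.45) for *Dnaja1*, −0.71 (0.10) for *Hspa8* and −0.65 (0.25) for *Hsph1*. The remaining 4 lay between −0.39 (*Hspe1*) and −0.06 (*Hsp90aa1*), and that of *Hsp90aa1* turned positive (0.04) with upper-quartile normalization. *Hsp90aa1* also had 0.01 with the replicate block and at most 0.01 when single libraries were left out. *Hspd1* had 0.31 without CD4cre replicate 2 and 0.03 with the T cell marker covariate. The median of the members was −0.68, and that of all 15653 genes tested was 0.02. Genes were called where the FDR was below 0.05 and the difference exceeded 2-fold, and none was called here (0% of genes tested, smallest FDR 0.0543 from edgeR), although 2592 genes had an unadjusted p under 0.05 and DESeq2 called 552 genes. In the same comparison 8 of 9 tested myeloid markers (median log2 fold change −2.82, 7 with an unadjusted p under 0.05) and 8 of 8 tested tubule markers (median −2.04, 3 with an unadjusted p under 0.05) had negative values, with 0 called. All 15 T cell markers (median −2.12) and all 15 immediate early genes (median −2.77) were negative as well, while 8 of 10 neuronal markers were positive (median 0.27), again with 0 called. Lower without overlap were 3 members (*Hspa1a*, *Hspa1b* and *Hspa8*) and 8.44% of all genes tested, and higher without overlap were 0 members and 6.02% of all genes. Nothing is read from these counts, since the members were chosen with these libraries known. Without CD4IKK1Δ replicates 1 and 2, a choice made after seeing the data, *Hspa1a* had a log2 fold change of −2.65 (0.49), *Hspa1b* of −2.79 (0.71) and *Dnajb1* of −3.06 (0.99). With the mean log2 level of the T cell markers as a covariate, the same genes had −0.58 (0.64), −0.59 (0.86) and −0.69 (1.28). The T cell marker sums of these groups do not overlap, so that the covariate and the group cannot be fully told apart.

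Between libraries labelled CD4NIKΔ and CD4cre libraries, log2 fold changes of 4 members were above 1, with 1.84 (0.46) for *Hspa1a*, 2.19 (0.53) for *Hspa1b*, 1.77 (0.43) for *Dnaja1* and 1.85 (0.79) for *Dnajb1*. The other 6 lay between −0.35 (0.45) for *Hspa8* and 0.24 (0.36) for *Hsph1*, each smaller than its standard error. The median of the members was 0.24, and that of all 15209 genes tested was −0.02. *Hspa1a*, *Hspa1b* and *Dnaja1* passed the threshold (3 of 10 members, beside 10.4% of all genes called higher and 6.99% called lower), and the same 3 members were higher without overlap (22.9% of all genes higher, 22.4% lower). None of them was called with the replicate block, without CD4NIKΔ replicate 2 or 3, or without CD4cre replicate 2 or 3. Only *Dnaja1* was called with all 11 libraries in the fit, with a filter of 1 count, and by DESeq2 on all 11 libraries. Again, nothing is read from these counts. With the T cell marker covariate the signs of these 3 genes turned, to −2.30 (0.56), −2.19 (0.64) and −1.85 (0.70), and *Dnajb1* had −5.38 (1.91). With it, *Hspa8* had −3.76 (1.56), *Hsph1* −2.81, *Hspe1* −2.19 (0.56), *Hsp90ab1* −1.26, *Hsp90aa1* −1.23 and *Hspd1* 0.52 (2.10). The T cell marker sums of both groups do not overlap, so that the covariate and the group can hardly be told apart in this fit.

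Libraries labelled CD4IKK1Δ and CD4NIKΔ were compared in a fit of all 11 libraries, so that this comparison shares its libraries with both others. The log2 fold changes were −5.19 (1.19) for *Hspa1a*, −5.67 (1.23) for *Hspa1b*, −5.59 (1.31) for *Dnajb1* and −2.85 (0.45) for *Dnaja1*. *Hsph1* had −0.91 (0.33), and the other 5 lay between −0.44 (0.20) for *Hsp90ab1* and −0.13 (0.46) for *Hspd1*, which turned to 0.11 with upper-quartile normalization. The median of the members was −0.68, and that of all 16546 genes tested was 0.06. Of the other cell type markers, 6 of 9 tested myeloid and 3 of 10 tested tubule markers were called lower as well and 0 higher. *Hspa1a*, *Hspa1b*, *Dnajb1* and *Dnaja1* passed the threshold (4 of 10 members, beside 18.5% of all genes called lower and 14.8% called higher) and were lower without overlap (24.4% of all genes lower, 20.7% higher), from which nothing is read. With the T cell marker covariate, *Hspa1a* had 0.33 (0.72), *Hspa1b* −0.20 (0.91), *Dnajb1* 0.60 (1.60) and *Dnaja1* −1.75 (0.72). Here too the T cell marker sums of the groups do not overlap, so that covariate and group cannot be fully told apart.

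**Figure D3:**
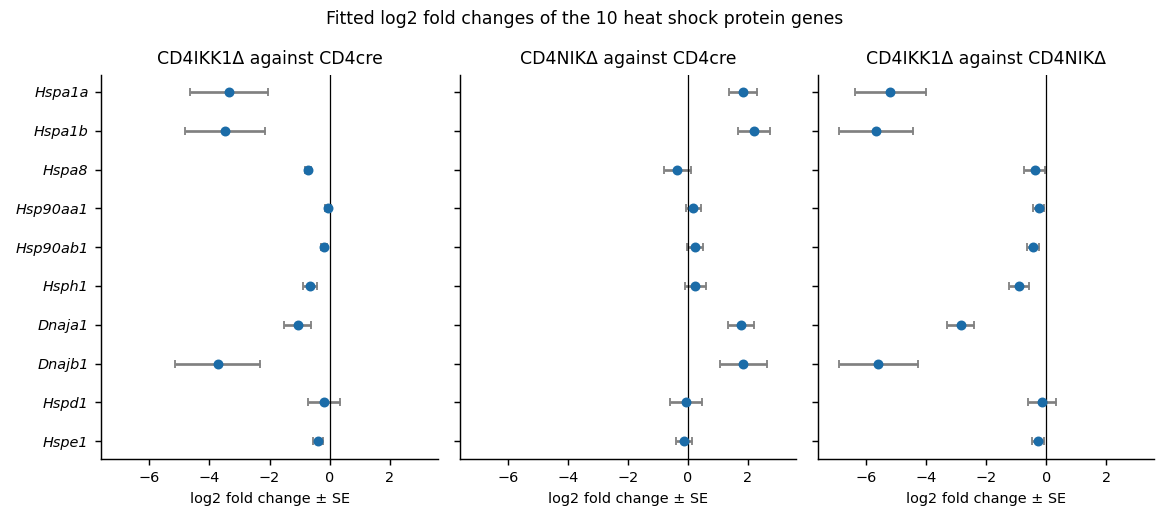
Fitted log2 fold changes of the 10 heat shock protein genes in the 3 comparisons (horizontal axis, log2 scale, first group minus second), with standard errors as bars. *Hspa1a*, *Hspa1b* and *Dnajb1* lie farthest from 0 in all 3 panels together with *Dnaja1* in the comparison of CD4NIKΔ and CD4cre, and the Hsp90 genes lie within 0.44 of 0.

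Other chaperone genes, which are not members, were tested over all genes. Their lists too were put together with earlier results of these libraries known. In 8 lists with 99 genes (98 in the table), edgeR called 0 of 91 tested genes when libraries labelled CD4IKK1Δ were set against CD4cre, 12 had an unadjusted p under 0.05 (13.2%, beside 16.6% of all genes tested), and DESeq2 called 1, *Bag3* (1.10%, beside 2.33% of the 23700 genes in its fit). *Bag3*, a nucleotide exchange factor of Hsp70 and itself a heat shock factor target, was at 42.9, 24.5 and 18.4 CPM in CD4cre libraries and at 0.388, 1.36, 13.5, 2.83 and 9.87 CPM in libraries labelled CD4IKK1Δ, with no overlap, a log2 fold change of −2.36 (0.91) and an FDR of 0.249 from edgeR. *Hspb1*, the small heat shock protein Hsp27, had a mean of 62.1 CPM (SD 15.9, n = 3) in controls against 10.5 CPM (SD 12.5, n = 5), a log2 fold change of −2.56 (1.02) and an FDR of 0.277. *Hspb1* had the smallest p of the small heat shock proteins. *Bag3* had a larger p than *Hspa4* of the same list (0.0290 against 0.00380, edgeR). The genes of smallest p in the lists other than that of *Hspb1* had smaller differences. They were *Hsbp1*, a binding partner of heat shock factor 1 (0.33, FDR 0.112), *Hspa4*, another Hsp110 protein (−0.65, FDR 0.129), the histone-binding J-domain protein *Dnajc9* (−0.60, FDR 0.0999), the co-chaperone *Tomm34* (−0.55, FDR 0.330), the mitochondrial protease *Clpp* (0.30, FDR 0.181), *Dnajc3* of the endoplasmic reticulum (−0.71, FDR 0.129) and the prefoldin *Pfdn2* (0.36, FDR 0.251). *Hsf1*, the master factor of the heat shock response, was at 27.4 ± 9.24 and 36.8 ± 4.37 CPM (−0.43, FDR 0.488), *Hsf2* had 0.26 (FDR 0.795), and *Hspa5*, the Hsp70 of the endoplasmic reticulum known as BiP, had −0.39 (FDR 0.315).

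Between libraries labelled CD4NIKΔ and CD4cre libraries, 13 of 91 tested genes of these lists rose (14.3%) and 3 fell (3.30%), beside the 10.4% and 6.99% of all genes given above. Hsp90 co-chaperones rose in 6 of 14 cases and fell in 0. Among them were *Cdc37*, which brings kinases to Hsp90 (from 71.4 ± 13.6 to 168 ± 19.9 CPM, SD, n = 3 each, log2 fold change 1.22, FDR 0.00969), *Fkbp4*, an immunophilin of steroid receptor complexes (from 7.55 to 37.9 CPM, 2.30, FDR 0.0160), and *Chordc1* (1.18, FDR 0.0148). Endoplasmic reticulum chaperones rose in 4 of 16 cases and fell in 0. *Hspa5* was at 478, 279 and 303 CPM in CD4cre libraries and at 902, 1042 and 1316 CPM in libraries labelled CD4NIKΔ (1.61, FDR 0.00824), the lectin chaperone *Calr* had 1.58 (FDR 0.0124), and the disulfide isomerase *Pdia4* 2.12 (FDR 0.00248). The J-domain proteins *Dnajc5* (1.12, FDR 0.0234) and *Dnajc9* (1.02, FDR 0.0166) rose out of 15 tested.

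The chaperonin subunit *Cct8* also rose (4.39, FDR 0.0480), but it was at 30.1, 1.36 and 0.201 CPM in CD4cre libraries. The genes that fell were *Hsbp1* (−1.02, FDR 0.0352), *Hspa12a*, a distant Hsp70 relative (−1.19, FDR 0.0266), and *Cryab*, the small heat shock protein αB-crystallin (−1.54, FDR 0.0182). *Hsf1* was at 65.5 ± 11.2 CPM (0.81, FDR 0.0356), less than the 2-fold difference required, and its groups did not overlap. *Bag3* had 1.20 (FDR 0.0685 from edgeR, called by DESeq2 with an adjusted p of 0.0184), *Hspb1* −0.14 (FDR 0.886) and *Hsf2* −0.09 (FDR 0.885), and in the mitochondrial list no gene passed, *Clpp* being nearest (−0.97, FDR 0.0162). *Bag3* and *Clpp* were both called without CD4NIKΔ replicate 1 and without CD4cre replicate 1. When each of the 6 libraries was left out in turn, *Cdc37*, *Hspa5* and *Pdia4* were called each time. The call was lost without 1 library for *Calr* (CD4cre replicate 2), without 2 for *Chordc1* (CD4NIKΔ replicate 3 and CD4cre replicate 3), without 3 for *Cryab* and *Dnajc9* (CD4NIKΔ replicate 3 and CD4cre replicates 2 and 3), and without 4 for *Dnajc5* (the same and CD4NIKΔ replicate 1) and *Fkbp4* (the same and CD4NIKΔ replicate 2). *Cct8* was called only without CD4cre replicate 1, and *Hsbp1* and *Hspa12a* only without CD4NIKΔ replicate 1. Without CD4NIKΔ replicate 3, 4 of the chaperone genes were called in place of 16. T cell markers rose in 14 of 15 cases and neuronal markers fell in 6 of 10 cases in the same comparison. With the T cell marker covariate no gene of these lists passed.

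Between libraries labelled CD4IKK1Δ and CD4NIKΔ, 22 of 94 tested genes of the lists were called lower (23.4%, beside 18.5% of all genes) and 6 higher (6.38%, beside 14.8%). Endoplasmic reticulum chaperones were lower in 7 of 16 cases, with *Hspa5* at −2.01 (FDR 4.01e-05), *Pdia4* at −2.63 (FDR 4.87e-05) and *Dnajc3* at −1.67 (FDR 8.68e-05). Hsp90 co-chaperones were lower in 6 of 14 cases, with *Cdc37* at −1.63 (FDR 0.000197), *Tomm34* at −1.79 (FDR 0.000240) and *Sugt1* at −1.11 (FDR 0.000295). Of the list of other Hsp70 proteins and their exchange factors, *Hspa4* (−1.48, FDR 0.000103) and *Bag3* (−3.57, FDR 0.00760) were lower, whereas *Hspa12a* was higher (1.51, FDR 0.000211). Among J-domain proteins *Dnajc9* was lower (−1.62, FDR 3.60e-05) and *Dnajb5* higher (1.18, FDR 0.0454), a call that was lost without any of 8 of the 11 libraries (all except CD4cre replicates 1 and 2 and CD4IKK1Δ replicate 1).

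*Hsf1* was lower (−1.26, FDR 0.00198), but had −0.98 without CD4IKK1Δ replicates 1 and 2, below the 2-fold threshold, *Hsf4* was lower at levels of 0.281 and 1.76 CPM (−2.61, FDR 0.0310), a call that was lost without these libraries together and without each of CD4IKK1Δ replicates 1, 3 and 5 and CD4NIKΔ replicates 2 and 3, and *Hsbp1* was higher (1.34, FDR 0.000194). In the mitochondrial list, *Trap1*, the mitochondrial Hsp90, was lower (−1.20, FDR 0.00328) and *Clpp* higher (1.26, FDR 8.68e-05). *Hspa9*, the mitochondrial Hsp70, was called lower with 0 or 1 count in each of the 5 libraries labelled CD4IKK1Δ, against 3, 15 and 19 counts in libraries labelled CD4NIKΔ. Since replicate 1 of the latter is itself at the floor of 3 counts, no fold is given. *Cct8* was lower (−4.96, FDR 0.0220, lost without CD4NIKΔ replicate 3) and *Cryab* higher (1.75, FDR 0.000237), while *Hspb1* had −2.44 (FDR 0.0817 from edgeR, called by DESeq2 with an adjusted p of 0.0239 and by edgeR without CD4IKK1Δ replicate 4) and *Hsf2* 0.34 (FDR 0.432). All 15 T cell markers were called lower and 8 of 10 neuronal markers higher in this comparison, and 4 genes of the chaperone lists passed with the T cell marker covariate. That one comparison of a genotype with CD4cre had calls and the other had none is not by itself a difference between them.

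**Figure D4:**
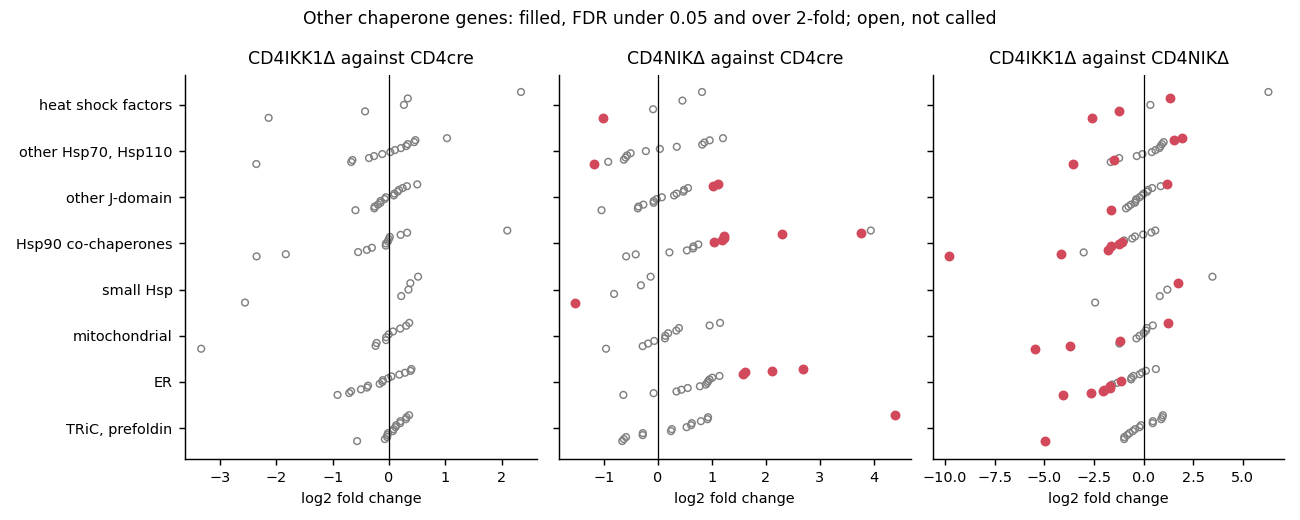
Log2 fold changes (horizontal axes, which differ between panels) of the other chaperone genes in 8 lists, with 1 panel per comparison. Each circle is 1 gene, filled where the gene was called (FDR below 0.05, difference over 2-fold). No circle is filled for CD4IKK1Δ against CD4cre, and in the other panels most filled circles of the Hsp90 co-chaperone and endoplasmic reticulum lists lie on 1 side.

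Genes with the pattern most like that of the members were sought over the 11 libraries, with each log2 CPM taken as a deviation from its group mean and compared with the mean of the 10 members. Among 16536 other genes, Pearson's r was highest for *Akap8l* (0.98, 74.1 to 247 CPM), *Hmgb1-ps8* (0.97, 0 to 4.67 CPM), *Tmc6* (0.97, 0.582 to 11.4 CPM), *Adora2a* (0.96, 0.388 to 22.4 CPM) and *Stat5a* (0.96, 0.969 to 49.4 CPM). The mean of the members is carried by *Hspa1a*, *Hspa1b* and *Dnajb1*, whose deviations had SDs of 2.11, 2.08 and 2.49 on the log2 scale, compared with 0.28 to 0.68 for the other 7, so that likeness to it is mostly likeness to these 3 genes. These are the highest of many correlations over few libraries that share the depth and cell composition of each library, and no p is given.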

How the data were processed

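RNA of sorted renal CD4+ T cells was sequenced in 11 libraries, 3 CD4cre, 5 labelled CD4IKK1Δ and 3 labelled CD4NIKΔ, grouped by the sample labels. The authors trimmed the paired reads with Trimmomatic, assigned them with kallisto and deposited each estimated count (expected count) per gene symbol without normalization. The paper names the assembly GRCm39 and the submitters' processing notes name mm10. The kallisto version, the annotation and the use of strand are not given in the sources used here. kallisto divides reads that fit several transcripts, which left 35.2% to 41.7% of values fractional, depending on the library. No columns were left without a sample, and 0 of 55 pairs of libraries were identical. Between 15751632 and 25737046 counts per library set the precision of low values.

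Counts were rounded, filtered by edgeR's expression filter, normalized by TMM and tested in edgeR 4.0.16 (R 4.3.3) by its quasi-likelihood F test with robust estimation, and p-values were adjusted over all genes tested after Benjamini and Hochberg. A call needed an FDR below 0.05 and a difference over 2-fold. Standard errors were taken from the F statistic. log2 CPM used a prior count of 2. Each comparison with CD4cre used its own libraries. Coordinates and transcripts came from GENCODE M39 (GRCm39), which holds 33508 of the 35814 symbols, and promoters from RefSeq (GRCm38.p6), whose coordinates are not those of the other build. Fits were tested on simulated data. The members and the lists of other genes were chosen with earlier results of these data known. Of the other chaperone genes, those named are up to 3 called genes of smallest p in each list and comparison, or else the gene of smallest p, and *Hsf1*, *Hsf2*, *Bag3*, *Hspb1* and *Hspa5* in every comparison, together with the 5 genes most like the members. The others are only counted, and a few genes are not reported here. Alternatives were DESeq2 (1.42.0), other normalization factors and filters, other sets of libraries, a non-robust fit, a block on the replicate number, the T cell marker mean as a covariate, no fold threshold and leaving out each library. The block used replicate numbers found in every group of a fit, hence no CD4IKK1Δ replicate 4 or 5. The labels call the replicates biological, and p-values measure the spread between these libraries.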

Additional observations from a re-analysis of the deposited data

Results flagged for a closer look

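Among 39 values examined in the 5 libraries labelled CD4IKK1Δ, 3 had a library that stood apart by Dixon's criterion on log2 CPM (a gap to the nearest library of more than 0.71 of the range), where chance gives about 5% of groups. *Dnaja1* was highest in replicate 5, with a gap of 0.771 of the range (159 CPM against 50.5 to 65.8 CPM in the others). *Pdia4* was lowest in replicate 1, with a gap of 0.754 (10.8 CPM against 21.8 to 27.4 CPM). *Hspa9* had its only count in replicate 4, which made the gap 1 and is below the floor of 3 counts.

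For 4 members, every library labelled CD4IKK1Δ lay below the mean of the CD4cre libraries and every library labelled CD4NIKΔ above it. The share of all genes that meet this rule was not counted. The rule requires CD4IKK1Δ to be lower than CD4NIKΔ without overlap, as were 24.4% of all genes tested. The CD4cre mean was 6050 CPM for *Hspa1a*, 5029 CPM for *Hspa1b*, 167 CPM for *Dnaja1* and 131 CPM for *Dnajb1*. Both effects are measured against the same 3 CD4cre libraries. The difference between them is the comparison of CD4IKK1Δ with CD4NIKΔ, in which CD4cre cancels, with log2 fold changes of −5.19, −5.67, −2.85 and −5.59 in the same order. All 4 were called in the fit over all genes, where 18.5% of genes were called lower, and, since the members were chosen with these libraries known, nothing is read from these calls.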

How the results depend on the processing

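Log2 fold changes of single members moved by less than the spread between replicates in 299 of 320 alternative fits other than leaving out 1 library, and in 248 of 250 fits that left out 1. That spread was wide for *Hspa1a*, *Hspa1b* and *Dnajb1* (SD within groups 2.11, 2.08 and 2.49 on the log2 scale), so this says little about the size of their differences: with the block, *Dnajb1* went from −3.73 to −5.82 (CD4IKK1Δ against CD4cre) and *Hspa1a* from −5.19 to −7.29 (CD4IKK1Δ against CD4NIKΔ) within it. The block on replicate number moved *Hspa1a* (−5.96) and *Hspa1b* (−5.83) for CD4IKK1Δ against CD4cre and *Hspa1b* (−7.84) for CD4IKK1Δ against CD4NIKΔ. The block fits took only replicate numbers present in each group of the fit. Both comparisons with CD4IKK1Δ therefore lacked its replicates 4 and 5, so that the block and the missing libraries cannot be told apart there. These libraries held the highest *Hspa1a* levels of their group (1010 and 1341 CPM). Without CD4cre replicate 2, *Hspd1* had 0.31 and 0.45 in the comparisons with CD4cre. The other shifts came with the T cell marker covariate. Among called values, it turned *Hspa1a* (−2.30), *Hspa1b* (−2.19), *Dnaja1* (−1.85), *Cct8* (−2.53), *Fkbp4* (−0.63), *Cryab* (0.34), *Hsbp1* (0.91) and *Hspa12a* (0.27) in the comparison of CD4NIKΔ with CD4cre, and *Hspa1a* (0.33), *Dnajb1* (0.60), *Bag3* (0.48) and *Cct8* (0.35) in that of CD4IKK1Δ with CD4NIKΔ. Among values not called, it turned those of *Dnajb1* (−5.38), *Bag3* (−2.54), *Hsph1*, *Hsp90aa1*, *Hsp90ab1*, *Hspd1* and *Hsf1* in the former, of *Hsph1* (0.12), *Hspd1* and *Hspb1* in the latter, and of *Hsf1* and *Hspd1* for CD4IKK1Δ against CD4cre. With it, the median of the members was −2.19 in the former and −0.13 in the latter, the chaperone genes called were 0 and 4, and all genes called were 0 and 336. The cause was not tested. Genes called between CD4IKK1Δ and CD4cre libraries were 0, but 1 with RLE or upper-quartile factors, 48 with a filter of 1 count, 129 with all 11 libraries in the fit, 552 and 710 with DESeq2 (own libraries and all 11), and 36 without CD4IKK1Δ replicates 1 and 2. DESeq2 called 1 and 2 of the other chaperone genes. Without a fold threshold, 29 (CD4NIKΔ against CD4cre) and 49 (CD4IKK1Δ against CD4NIKΔ) chaperone genes passed, against 16 and 28 with it. The share of higher calls was 59.9% between CD4NIKΔ and CD4cre libraries, and 49.0% and 44.9% with library sizes alone and upper-quartile factors. It was 44.3% between CD4IKK1Δ and CD4NIKΔ, and 55.5% with upper-quartile factors, which moved the median of all genes by 0.24 (and by −0.13 in the former comparison, where library sizes alone moved it by −0.12, and by 0.11 in the latter). Leaving out each library in turn gave 0 to 23, 674 to 3468 and 4116 to 5556 genes called in the order of the report, 0, 4 to 18 and 22 to 36 chaperone genes, and medians of the members of −0.77 to −0.52, 0.07 to 0.56 and −1.03 to −0.47. The lowest counts of the second comparison came without CD4NIKΔ replicate 3 (674 and 4), followed by CD4cre replicate 3 (859 and 5), CD4NIKΔ replicate 2 (918 and 10) and CD4cre replicate 2 (1001 and 6), and the median of −1.03 came without CD4NIKΔ replicate 1. Deviations of same-numbered libraries correlated between −0.11 and 0.06, so the numbers were not taken to pair the mice. With the replicate number as a block, 3, 1185 and 4989 genes and 0, 9 and 29 chaperone genes were called. The comparisons with CD4IKK1Δ lacked its replicates 4 and 5 in these fits. For CD4NIKΔ against CD4cre, *Dnajc5*, *Dnajc9*, *Fkbp4*, *Hsbp1*, *Hspa12a* and the members *Hspa1a*, *Hspa1b* and *Dnaja1* lost their calls. For CD4IKK1Δ against CD4NIKΔ, *Cct8*, *Dnajb5*, *Hsf4* and *Hspa9* lost theirs, whereas *Hspb1* (−4.53) and the member *Hsph1* (−1.20) gained calls. *Clpp* (CD4NIKΔ against CD4cre) gained one with library sizes alone (−1.09) and with upper-quartile factors (−1.11). Depth limits *Hspd1*, *Hspa9* and *Hsf4*, and 41 T cell receptor counts limit the ratio of CD4IKK1Δ replicate 1.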
